A study of Mus musculus with 6 samples.

Results

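Imprinted genes are transcribed mainly from the copy inherited from 1 parent, in at least some tissues. Of these genes 41, Gnas among them, were followed in naive B cells of mouse spleen with and without TET2. They were taken by name from a list of known imprinted genes, and 40 of the 41 were among the 41053 gene names of the count table; Peg13 was not analysed here. RNA sequencing gave 3 libraries from TET2 knockout and 3 from TET2 wild-type cells, all of strain C57BL/6, numbered 2, 3 and 4 in each genotype. How the knockout was made, the age and sex of the animals, and whether each library came from its own mouse are not given in the sources used here, so the p-values reflect spread among libraries that may be technical only.

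Imprinting rests on DNA methylation that is laid down in the egg or the sperm at imprinting control regions and is then kept in body cells through each round of replication. Genes under 1 control region form a domain, in which the maternal and the paternal copy often express different members, and a long noncoding RNA frequently silences its neighbours on 1 copy. TET2 oxidizes 5-methylcytosine, the mark that carries the imprint. The counts used here do not separate the parental copies, so they give levels and not allelic expression. Whether any gene followed here is transcribed mainly from 1 copy in naive B cells was not tested.

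Total counts were between 35101788 and 45401781 per library, and levels are given as CPM, counts scaled to a fixed library size after TMM normalization. On this scale 3 counts were worth 0.0679 to 0.0857 CPM, depending on the library. B cell markers were expressed in every library: Cd79a and Cd79b, the signalling chains of the B cell receptor, ranged over 1592 to 1973 and 2253 to 2604 CPM among knockout libraries and over 1437 to 1643 and 1988 to 2305 CPM among wild-type libraries. Library 4 of each genotype lay away from the other libraries, so differences are also given separately for libraries 2 and 3 and for the fourth pair (knockout 4 and wild type 4) where they touch a result. Values per library are listed in the order 2, 3, 4. The knockout libraries held the Y-linked transcript Kdm5d at 23.3 to 34.9 CPM, against at most 0.0571 CPM in wild type, and Xist, the RNA that silences an X chromosome in female cells, at 802 to 887 CPM against 1443 to 1537 CPM. Each knockout library thus held both transcripts, and whether it pooled cells of male and female mice was not tested. The effects of genotype and of sex composition cannot be told apart in any comparison below.

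Gnas has several alternative starts, of which RefSeq (GRCm38.p6) lists 4 with a window of 250 bases before and 50 bases after the start, and a count per gene cannot tell transcripts from these starts apart. Of the 4 windows, 3 that do not overlap are shown, since methylation at CpG is the substrate of TET2; capitals mark each CpG, and the sequences are on the plus strand, 5′ to 3′.
Gnas, chr2:174284070-174284369: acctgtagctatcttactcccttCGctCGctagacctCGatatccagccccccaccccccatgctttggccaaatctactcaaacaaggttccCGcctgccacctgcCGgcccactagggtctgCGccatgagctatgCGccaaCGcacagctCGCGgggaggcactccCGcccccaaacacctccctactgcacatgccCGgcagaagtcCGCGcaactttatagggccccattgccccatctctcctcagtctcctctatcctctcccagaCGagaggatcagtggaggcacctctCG
Gnas, chr2:174327499-174327798: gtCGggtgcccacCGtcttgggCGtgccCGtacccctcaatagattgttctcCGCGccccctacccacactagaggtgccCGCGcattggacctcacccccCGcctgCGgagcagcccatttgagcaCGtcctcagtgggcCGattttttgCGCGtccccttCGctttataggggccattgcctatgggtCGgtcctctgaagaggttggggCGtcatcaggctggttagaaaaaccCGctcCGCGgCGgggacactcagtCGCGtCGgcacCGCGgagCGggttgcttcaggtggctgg
Gnas, chr2:174329756-174330055: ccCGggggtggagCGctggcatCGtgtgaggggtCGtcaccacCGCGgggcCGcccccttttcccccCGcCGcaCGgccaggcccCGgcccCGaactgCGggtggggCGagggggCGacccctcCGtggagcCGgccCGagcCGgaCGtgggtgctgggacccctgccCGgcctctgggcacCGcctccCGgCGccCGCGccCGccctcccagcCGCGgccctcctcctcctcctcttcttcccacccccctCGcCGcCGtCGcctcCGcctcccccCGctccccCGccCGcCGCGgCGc
These windows hold 16, 27 and 40 CpG. Over all 32851 RefSeq windows of this length, 33.0% hold at least 16, 15.5% at least 27 and 3.91% at least 40. Windows were listed for 31 of the 41 imprinted genes, and their 45 windows had a median of 15 CpG, against 7 over all windows. The hexamer TGCCGC, which the imprint-keeping zinc finger protein ZFP57 recognizes in methylated form, or its reverse complement GCGGCA, was found in 12 of the 45 windows (26.7%) and in 11.6% of all windows. The hexamer itself holds a CpG, of which these windows have more, and windows of equal CpG number were not compared. Overlapping Mest windows that start at 30737800 and 30737803 are both among the 12. The most copies in a window were 3, for Zdbf2, which had 0 counts here. Of the genes detected in these cells, Mest and Nap1l5 held the most, with 2 copies each in a window, and these are shown with the hexamers in capitals, Mest on the plus and Nap1l5 on the minus strand.
Mest, chr6:30737800-30738099: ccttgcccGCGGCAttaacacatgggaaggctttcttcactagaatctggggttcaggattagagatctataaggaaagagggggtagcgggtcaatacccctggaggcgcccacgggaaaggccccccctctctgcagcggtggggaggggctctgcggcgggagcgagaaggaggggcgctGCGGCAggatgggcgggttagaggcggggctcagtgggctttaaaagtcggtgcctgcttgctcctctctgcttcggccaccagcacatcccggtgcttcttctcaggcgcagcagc
Nap1l5, chr6:58907077-58907376: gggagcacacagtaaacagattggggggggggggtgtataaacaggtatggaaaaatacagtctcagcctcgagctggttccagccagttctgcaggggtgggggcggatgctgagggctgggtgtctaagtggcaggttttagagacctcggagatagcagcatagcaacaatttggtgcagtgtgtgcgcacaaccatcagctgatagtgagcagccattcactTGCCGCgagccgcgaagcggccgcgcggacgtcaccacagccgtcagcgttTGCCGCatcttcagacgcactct
A match is a description of these letters only, and neither methylation nor binding was measured. Zfp57 itself was silent in these cells, with 1 count over all libraries together.

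Naive B cells expressed a minority of these genes. Of the 40, 13 had a mean of at least 1 CPM over the 6 libraries and are called expressed, 8 lay under 1 CPM with more than 3 counts in some library and are called low, and 19 had at most 3 counts in every library and are called silent. Of the silent genes, 12 had 0 counts in all 6 libraries, and the other 7 had 18 counts between them. For comparison, 27.7% of all gene names in the table were expressed by this measure and 57.5% silent, against 32.5% and 47.5% of the imprinted genes. A silent gene is one not detectable at this depth in the annotated exons of these mRNA libraries.

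**Figure D1:**
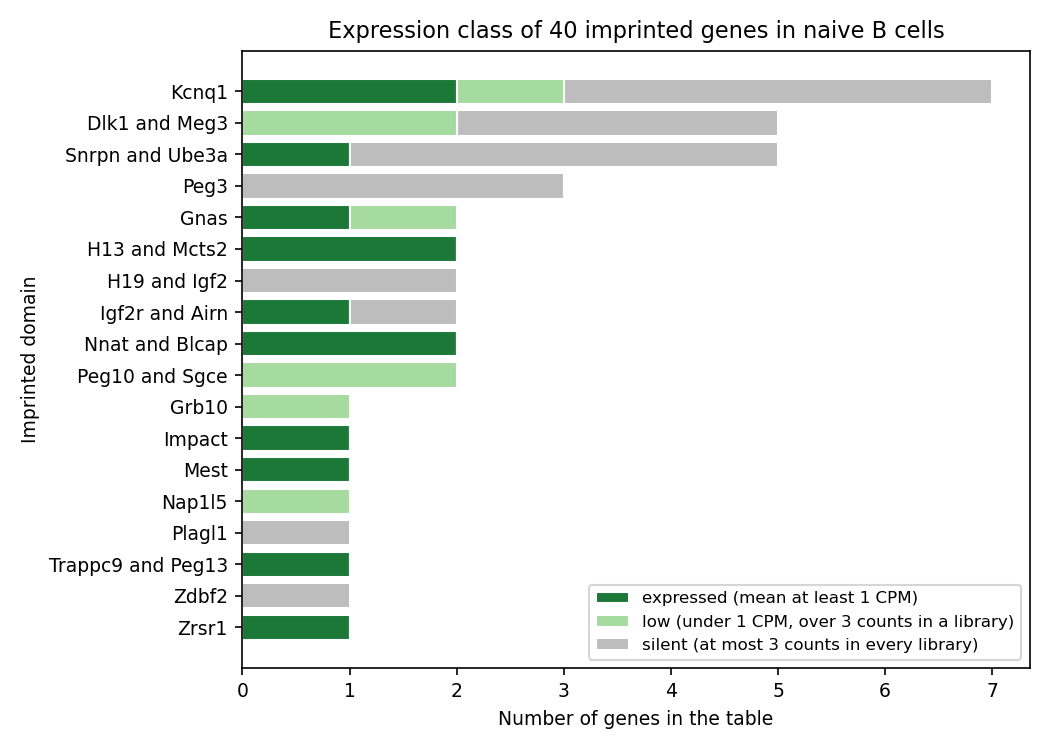
Number of imprinted genes (x axis) in each expression class for the 18 imprinted domains (y axis), from 6 naive B cell libraries. The Peg3 domain and the pair H19 and Igf2 are silent throughout, the Kcnq1 domain holds all 3 classes, and 10 of 18 domains have at least 1 expressed gene.

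Igf2, a fetal growth factor, had 1 count in all 6 libraries together, and H19, the noncoding RNA beside it on chromosome 7, had 0. Its clearing receptor Igf2r, on chromosome 17, was expressed, with knockout values of 34.6, 35.9 and 32.5 CPM and wild-type values of 34.1, 39.2 and 31.8 CPM, so that the genotypes overlapped. Airn, the noncoding RNA that silences Igf2r on the paternal copy, had 3 counts in all. On chromosome 12, Dlk1, a membrane protein of the Notch ligand type, had 10 counts over the libraries, 6 of them in wild-type library 3; Rtl1, derived from a retrotransposon, had 6; the noncoding Meg3 had 1; and Rian and Mirg, which host small RNAs, had 0. Grb10, an adaptor that restrains insulin signalling, had 6 counts, and the growth-suppressing zinc finger gene Plagl1 had 9.

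In the Peg3 domain of chromosome 7, Peg3, Usp29 and Zim1 had 0 counts in every library. Of the Prader-Willi and Angelman region, Ndn, Magel2 and Mkrn3 had 0 counts and Snrpn, which encodes a splicing protein, had 1, whereas Ube3a, the ubiquitin ligase gene of the same region, was expressed, with knockout values of 85.7, 82.7 and 89.2 CPM and wild-type values of 85.7, 89.4 and 97.3 CPM. The genotypes overlapped for Ube3a. A GENCODE vM21 transcript of Ube3a aligned to the antisense transcript Snhg14 over 1823 bases with 99.6% identity. Whether this stretch lies in the exons that were counted was not tested.

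In the Kcnq1 domain Tspan32, which encodes a tetraspanin of blood cells, was the highest of all 40 genes on a per-length scale. It had knockout values of 169, 176 and 164 CPM and wild-type values of 179.7, 171 and 174 CPM, with overlapping genotypes. Kcnq1ot1, the noncoding RNA that silences the domain on the paternal copy, had knockout values of 14.6, 14.3 and 11.8 CPM and wild-type values of 14, 18.7 and 8.82 CPM, with both the highest and the lowest library in wild type. Its annotated exon is 84.4 kb long, so this came to 0.162 CPM per kb. Cdkn1c, an inhibitor of cyclin-dependent kinases, was low, with 14 to 17 counts in each library. The potassium channel gene Kcnq1 and the placental growth inhibitor Phlda2 had 0 counts, the transporter gene Slc22a18 had 2, and Ascl2, a transcription factor gene of trophoblast, had 1.

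The domains of chromosome 2 each had at least 1 expressed gene. H13, which encodes a signal peptide peptidase, had knockout values of 103, 105 and 103 CPM and wild-type values of 90.1, 94.0 and 97.6 CPM, with every knockout library above every wild-type library. Mcts2, a retrogene in an intron of H13 on the same strand, related to a regulator of translation, had knockout values of 3.07, 3.61 and 4.22 CPM and wild-type values of 3.80, 4.62 and 3.65 CPM, which overlapped. Mcts2 aligned to its parent gene Mcts1 with 83.8% identity over 671 bases and to Gm8328 with 94.3% over 419 bases, so its counts are less certain. Whether reads from the H13 intron were counted as Mcts2 was not tested. Blcap, an apoptosis-related membrane protein gene, had knockout values of 24.2, 23.3 and 24.7 CPM and wild-type values of 20.7, 20.3 and 23.0 CPM, with no overlap. Nnat, a small proteolipid gene inside the span of Blcap on the other strand, had knockout values of 1.66, 2.50 and 0.809 CPM and wild-type values of 1.70, 3.07 and 1.11 CPM. In both genotypes Nnat was lowest in library 4 and highest in library 3.

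Single genes elsewhere were expressed as well. Trappc9 on chromosome 15, a subunit of a vesicle-tethering complex, had knockout values of 50.6, 49.9 and 48.3 CPM and wild-type values of 49.2, 49.6 and 41.5 CPM. Impact on chromosome 18, which restrains the stress kinase GCN2, had knockout values of 33.6, 41.5 and 40.6 CPM and wild-type values of 46.9, 41.7 and 38.3 CPM. Zrsr1 on chromosome 11, a retrogene for a splicing factor that lies within the span of Commd1 on the opposite strand, had knockout values of 21.9, 21.5 and 27.1 CPM and wild-type values of 24.4, 21.6 and 24.2 CPM. The genotypes overlapped for all 3 genes. Zrsr1 aligned to Zrsr2 with 77.4% identity over 1285 bases.

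On chromosome 6 levels were close to the expression limit. Mest, a gene of the hydrolase fold family, had knockout values of 0.658, 0.770 and 1.52 CPM and wild-type values of 1.52, 1.59 and 1.08 CPM, with library 4 highest in knockout and lowest in wild type. Mest shares 22.9% of its exon bases with Copg2 on the opposite strand. Low genes were Nap1l5, a nucleosome assembly family gene inside Herc3 (mean 0.581 CPM, 20 to 32 counts per library), Sgce, the sarcoglycan epsilon gene (0.469 CPM, 12 to 31 counts), and Peg10, a retrotransposon-derived gene (0.450 CPM, 11 to 28 counts). Copg2 averaged 65.0 CPM and Herc3 97.1 CPM over all libraries. Whether their reads were counted for Mest or Nap1l5 was not tested. Zdbf2, a zinc finger gene of chromosome 1, had 0 counts.

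Compared per kilobase of exon, Tspan32 led with a mean level of 60.5 CPM per kb over 6 libraries (SD 1.90), followed by Ube3a at 17.3 (SD 0.992), Impact at 11.8 (SD 1.28) and H13 at 11.1 (SD 0.647). Every library of Tspan32 lay above every library of Ube3a, and the same held for Ube3a over Impact, whereas Impact and H13 overlapped. Trappc9, Blcap and Zrsr1 overlapped with each other at 7.15 to 7.58 CPM per kb, and Mcts2, Igf2r and Gnas overlapped in turn at 4.18, 3.67 and 2.3 CPM per kb. These levels spread the counts over the whole annotated exon length, which understates a gene whose cells use only part of it.

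**Figure D2:**
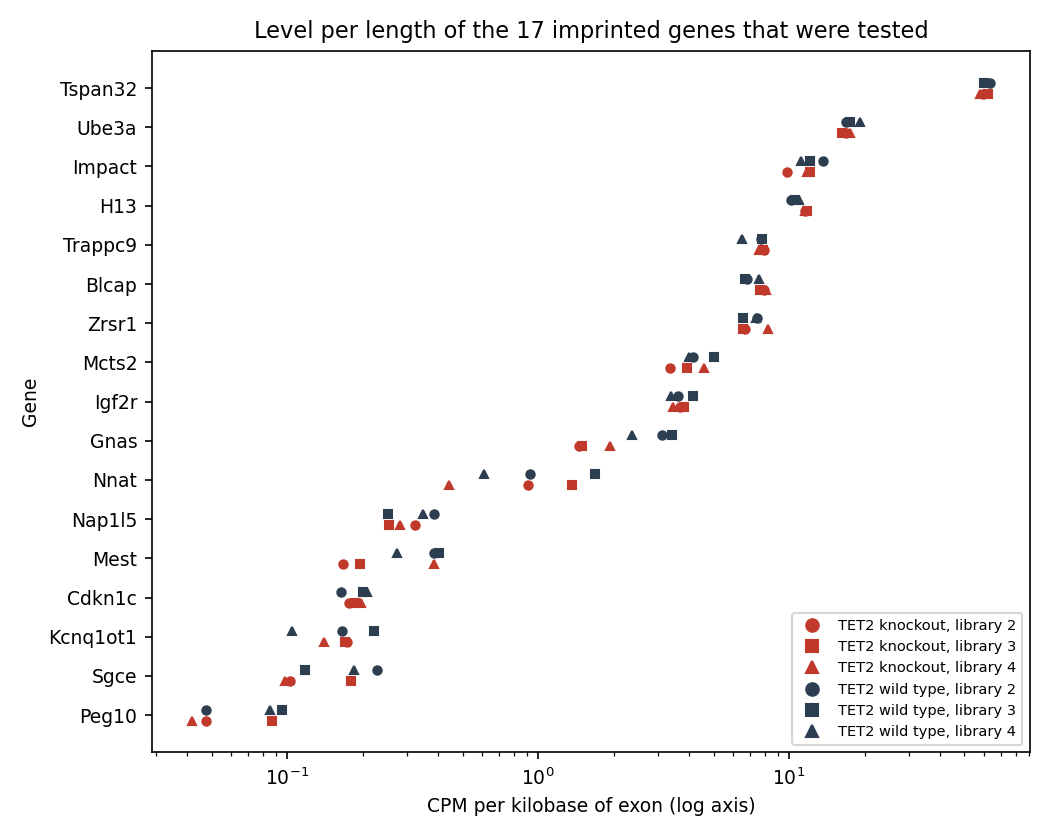
Level per kilobase of exon (log x axis, CPM per kb) of the 17 imprinted genes that passed the filter on low counts (y axis), with 1 point per library, coloured by TET2 genotype and shaped by library number. Tspan32 lies above all others at 60.5 CPM per kb on average, and Gnas is the 1 gene whose knockout points all lie to the left of its wild-type points.

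The genotypes were then compared by edgeR's quasi-likelihood test over all 13604 genes that passed the filter on low counts, 17 of the imprinted genes among them. None of the 17 passed the threshold (edgeR adjusted p under 0.05), where 0.404% of all tested genes did. By DESeq2 1 passed (Gnas, lower; 2.51% of all genes with a DESeq2 adjusted p), by limma-voom 0 (0.353% of all). Gnas alone had an unadjusted edgeR p under 0.05, as did 13.4% of all tested genes. Without the filter on low counts Gnas passed as well (edgeR adjusted p = 0.00376), as did 1.14% of the 23019 genes then tested. The log2 difference, knockout minus wild type, was negative for 13 of the 17 and positive for 4, with a median of −0.08. Over all 13604 tested genes it was negative for 6963 and positive for 6641, with a median of −0.01. For 3 of the 17 (Gnas, H13 and Blcap) the genotypes did not overlap, a share of 17.6% where 18.5% of all tested genes showed this. The other 23 genes of the table were too low to be tested, and none of them is counted as unchanged.

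Gnas encodes the stimulatory G protein alpha subunit, which couples receptors to adenylyl cyclase and cAMP. It lies on chromosome 2 (174284320 to 174346744, plus strand, GRCm38). Knockout values of Gnas were 16.3, 16.8 and 21.7 CPM and wild-type values 34.7, 38.2 and 26.5 CPM. All 3 knockout libraries were below all 3 wild-type libraries, and in each genotype library 4 lay nearest to the other genotype. Knockout averaged 18.3 ± 2.98 CPM against 33.2 ± 6.00 CPM (SD, n = 3 each), and the fitted level was 55.0% of wild type (log2 −0.86, SE 0.16). With an adjusted p of 0.0721 in edgeR this missed the threshold. Permuting the 6 CPM values exactly, on both sides, gave p = 0.1, the smallest that 3 against 3 libraries allow. Without knockout library 4 the log2 difference was −1.0 and without wild-type library 4 it was also −1.0, and both passed (edgeR adjusted p = 0.0297 and 0.00649). Without any 1 of the other libraries Gnas did not pass, with an edgeR adjusted p of 0.241 to 0.387.

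Of the exon bases of Gnas, 22.0% are shared with genes on the opposite strand, 988 bases with Nespas and 1469 with Gm20721. Nespas, the antisense noncoding RNA of this domain, had 2, 5 and 0 counts in the knockout libraries and 0, 1 and 0 in the wild-type ones, and Gm20721 had 7 counts in all libraries together. The counts of both antisense genes were thus near 0, while Gnas had 696 to 1680 counts per library. The file header shows no option that counts a read over 2 genes, and whether reads in the shared bases were left out was not tested.

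**Figure D3:**
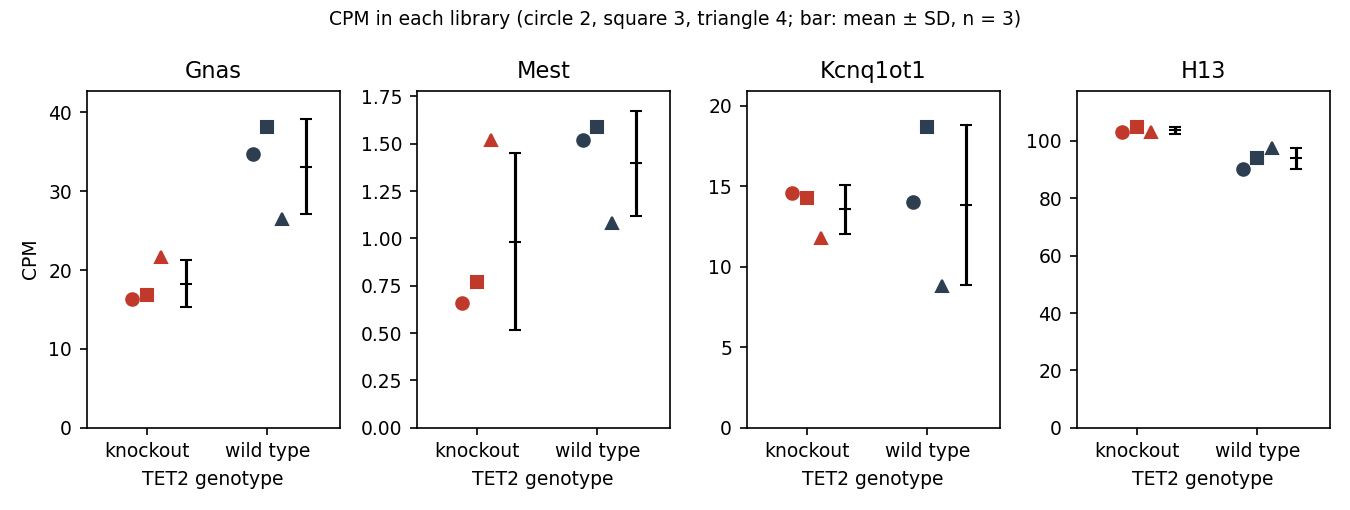
CPM (y axis, from 0) of Gnas, Mest, Kcnq1ot1 and H13 in each knockout and wild-type library (x axis), shaped by library number, with the mean ± SD of 3 libraries as a bar. Gnas separates the genotypes, with library 4 of each genotype nearest the other, and Mest and Kcnq1ot1 have overlapping genotypes.

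The difference of Gnas was not the same in both sets of libraries. Within libraries 2 and 3 it was −1.14 on the log2 scale (SE 0.08), and within the fourth pair it was −0.29 (SE 0.12), from a model with an interaction of genotype and library set. The interaction itself was 0.85 (SE 0.14, edgeR adjusted p = 0.00661), and it was past the threshold for 1 of the 17 imprinted genes and for 1.19% of all tested genes. The fourth pair has 1 library per genotype, so the spread in this model comes from libraries 2 and 3 alone and is assumed to hold for that pair. With a term for the library set in place of the interaction, the log2 difference of Gnas was −0.86 and passed (edgeR adjusted p = 0.0427), as did 4.4% of all tested genes.

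Of the other 16 tested genes, Mest had the largest difference over all 6 libraries at −0.52 (SE 0.34, edgeR adjusted p = 0.530), with −0.97 to −0.30 when 1 library was left out. The order rests on single libraries: without knockout library 3 the differences of Sgce (−0.80), Peg10 (−0.75) and Nnat (−0.67) were larger than that of Mest (−0.38). Within libraries 2 and 3 it was at −1.12, past the threshold in those libraries (edgeR adjusted p = 0.00843), and in the fourth pair it was at 0.48, so the sets went in opposite directions; the interaction was 1.6 (SE 0.47, edgeR adjusted p = 0.0989). In libraries 2 and 3 alone Gnas and H13 also passed (H13 0.17, edgeR adjusted p = 0.0344), which made 3 of the 17, where 24.0% of all genes tested in those libraries passed. H13 differed by 0.14 (SE 0.06, edgeR adjusted p = 0.399) and Blcap by 0.17 (SE 0.09, edgeR adjusted p = 0.441) over all 6 libraries.

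Sgce and Peg10, neighbours that start from a shared control region on chromosome 6, differed by −0.47 (SE 0.38) and −0.37 (SE 0.40), and Nnat by −0.25 (SE 0.44). With 1 library left out they ranged over −0.80 to −0.24 for Sgce, −0.75 to −0.17 for Peg10 and −0.67 to 0.22 for Nnat. Tspan32, Ube3a, Igf2r and Trappc9, which have SE of at most 0.10, differed by −0.04, −0.08, −0.03 and 0.08, and Igf2r turned to a positive sign without knockout library 4 (0.01) or wild-type library 3 (0.05). For Kcnq1ot1 the difference was −0.03 (SE 0.23), at −0.16 in libraries 2 and 3 and 0.42 in the fourth pair. For 10 of the 17 genes the sign was the same in both sets of libraries, and for 7 it was opposite. The share over all tested genes was not computed.

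**Figure D4:**
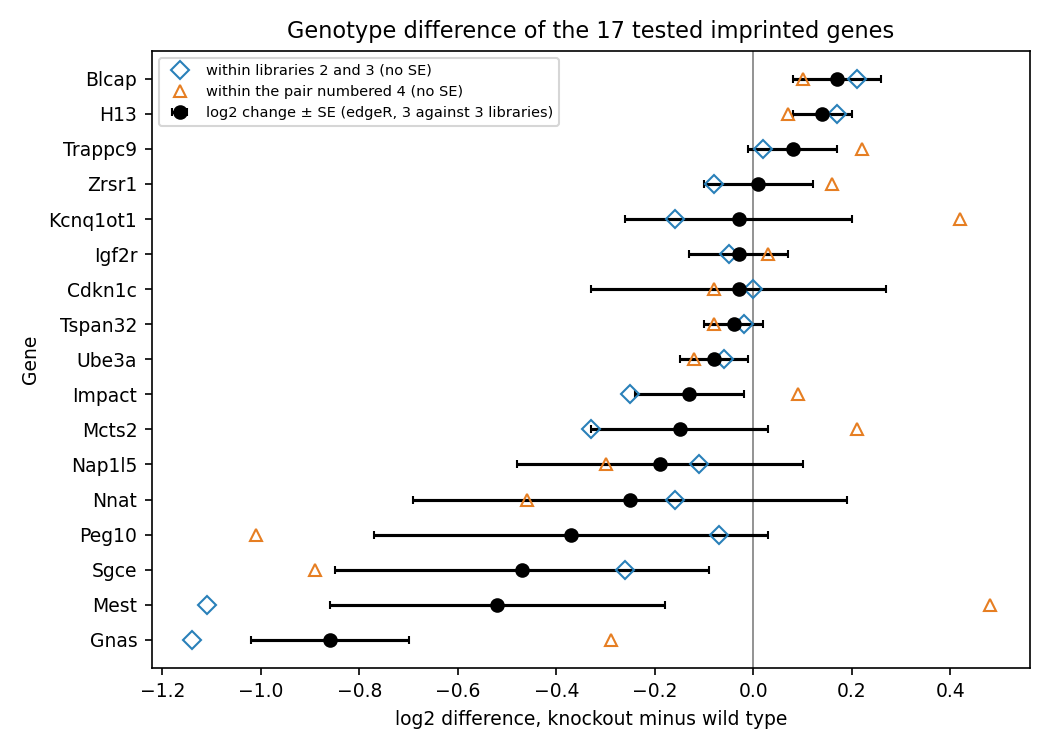
log2 difference, knockout minus wild type (x axis), of the 17 tested imprinted genes (y axis), with black points and bars for the estimate ± SE over 6 libraries, and open symbols for the difference of mean log2 normalised counts (0.5 added to each count) in each set of libraries, which has no SE. Gnas is lowest at −0.86, and Mest lies at −1.11 in libraries 2 and 3 and at 0.48 in the fourth pair.

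Genes that work with Gnas or keep imprints were read from the same test. Of 36 genes of Gs and cAMP signalling, 33 were tested, edgeR and limma-voom called 0 and DESeq2 1 lower (Crtc3, where it called 2.51% of all genes), and for 4 (12.1%, against 13.4% of all tested genes) the unadjusted edgeR p was under 0.05 (median log2 difference −0.03). Crtc3, a CREB coactivator, averaged 47.6 ± 0.262 CPM in the 3 knockout libraries against 64.1 ± 6.59 CPM (SD; log2 −0.43, edgeR adjusted p = 0.114). With the term for the library set 3 of the 33 were called, all lower, where 4.4% of all tested genes were called. Among them were Crtc3 (edgeR adjusted p = 0.0106) and the cAMP-activated exchange factor gene Rapgef3, which was named after its value was seen.

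Of 30 regulators of imprints and DNA methylation, 26 were tested, with a median log2 difference of 0.01. Of these edgeR, DESeq2 and limma-voom called 0, where they called 0.404%, 2.51% and 0.353% of all genes. At an unadjusted edgeR p under 0.05 there were 0, against 13.4% of all tested genes. Rbbp4, a histone chaperone gene, differed by 0.21 and Tet2 by −0.30 (edgeR adjusted p = 0.376 and 0.408). With the library set term Tet2 alone of the 26 was called, as lower (edgeR adjusted p = 0.0420), where 4.4% of all tested genes were called. The deleted part of Tet2 is not given in the sources used here, so its count does not check the genotype labels. Of 36 hosts and neighbours of the imprinted genes, 26 were tested and called 0 times by edgeR, DESeq2 or limma-voom, with 2 (7.69%, against 13.4% of all tested genes) at an unadjusted p under 0.05. These 2 were Wars, a tRNA synthetase gene at 0.46, and Mrpl23, a mitochondrial ribosomal protein gene next to H19 at −0.64 (edgeR adjusted p = 0.292 and 0.318).

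The summed levels of marker lists of other cell types overlapped between the genotypes. The lists held 10 T cell, 9 myeloid, 10 erythroid, 6 platelet, 6 NK, 9 stromal and endothelial and 4 plasma cell genes. For 5 single markers among these the genotypes did not overlap, where 18.5% of all tested genes showed this. The T cell list, with 2 of 10 genes at 1 CPM or more (Lck and Cd5), summed to 50.6 to 67.8 CPM for knockout and 48.7 to 52.9 CPM for wild type, and Lck alone gave 46.2 to 64.8 CPM. The myeloid list, with 3 of 9 genes at 1 CPM or more and Elane at 0, summed to 8.92 to 15.1 CPM for knockout and 14 to 17 CPM for wild type. Within it Lyz2 was at 4.93 to 6.55 CPM for knockout and 7.34 to 10.1 CPM for wild type, in the direction of Gnas, as was the erythroid marker Epor at 0.0963 to 0.182 and 0.204 to 0.286 CPM. In the other direction, the endothelial marker Vwf was at 2.21 to 3.21 CPM for knockout and 0.476 to 0.819 CPM for wild type, in a list whose sum of 312 to 426 and 325 to 381 CPM was nearly all Pecam1. Klrb1c, of NK cells, was at 0.303 to 0.457 and 0.0906 to 0.296 CPM, and Cd3d, of T cells, at 0.278 to 0.636 and 0.159 to 0.257 CPM. Epor, Klrb1c and Cd3d were near the floor, with 50, 71 and 80 counts over all libraries together. These 5 markers were named after their values were seen. Their part in the difference of Gnas was not tested. In bulk RNA, fewer cells of a type and less RNA per cell cannot be told apart.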

How the data were processed

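RNA from splenic naive B cells of C57BL/6 mice, 3 TET2 knockout and 3 wild-type libraries, was extracted with Trizol and RNeasy and made into stranded TruSeq mRNA libraries, per the labels' protocols. Reads were aligned with STAR 2.3.0e to GRCm38.p3, per the submitters' processing notes. The authors deposited whole-number counts per gene name, made with featureCounts 1.5.1 on GENCODE vM3 exons, paired and without a strand option, per the file headers. The deposited exon length gave CPM per kb. A further 6 columns of counts were not used.

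Counts were filtered (filterByExpr, minimum count 10), scaled by TMM and tested with edgeR 4.0.16 (robust quasi-likelihood F test, Benjamini-Hochberg over 13604 genes, threshold 0.05) in R 4.3.3. Alternatives were DESeq2 1.42.0, limma 3.58.1 (voom), other scalings and filters, a replicate block, a batch term for the libraries numbered 4, libraries 2 and 3 alone, and leaving out each library. An interaction model was added after seeing the data. Depth was 35101788 to 45401781 counts per library, and precision covers counting error and library spread only. Promoter windows came from RefSeq, and copies of genes were sought with blastn in GENCODE vM21 transcripts.

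The members and lists were chosen with earlier results of these data known. Values per library are given for every expressed member and every member with an unadjusted p under 0.05, the rest by range and counts, and from each other list up to 4 genes past the threshold, or else the 2 with the smallest p. Results for some listed genes are not reported here.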

Additional observations from a re-analysis of the deposited data

Results flagged for a closer look

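The knockout difference of Gnas was not equal in the 2 sets of libraries: the log2 difference in the fourth pair minus that in libraries 2 and 3 was 0.85 (SE 0.14, edgeR adjusted p = 0.00661). The value of Gnas was lower in knockout in both sets, at −1.14 in libraries 2 and 3 and at −0.29 in the fourth pair. The fourth pair has 1 library per genotype, so its own libraries cannot test the difference within it. The reason for the unequal differences was not tested.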

How the results depend on the processing

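Over all tested genes 55 were called, against 262 with no filter on low counts, 33 at a mean of at least 1 CPM, 342 by DESeq2, 85 with a replicate block, 599 with a batch term, 3307 in libraries 2 and 3 alone and 17 to 900 with 1 library left out. Of the imprinted genes 0 were called, against 1 (Gnas) with no filter, by DESeq2 or with the batch term, 3 in libraries 2 and 3 alone, and 0 to 1 with 1 library left out. Gnas passed the threshold under 6 of 15 planned settings and kept its direction in all 15. Its log2 difference was −0.85 with no filter, −0.86 by DESeq2, −0.86 with the batch term, and −1.14 for libraries 2 and 3, both alone and in the interaction model. With 1 library left out it was −1.0 to −0.75 (edgeR adjusted p 0.00649 to 0.387). The sign of 5 genes with small differences turned. For Kcnq1ot1 it was 0.01 by limma-voom and with the batch term and 0.02 with the replicate block, and for Zrsr1 −0.04 with library size only, −0.0011 under the batch term and −0.08 for libraries 2 and 3 alone. With 1 library left out the ranges were −0.09 to 0.05 for Igf2r, −0.27 to 0.24 for Kcnq1ot1, −0.13 to 0.03 for Cdkn1c, −0.11 to 0.07 for Zrsr1 and −0.67 to 0.22 for Nnat. The cause of these shifts was not tested. The labels share replicate numbers, but same-numbered libraries correlated at 0.0857, 0.22 and 0.394 and 3 of 6 libraries correlated best with their own number, so the numbers were not taken as pairs; the replicate block left Gnas at −0.86 (edgeR adjusted p = 0.0921). The count of 13 expressed genes was 14 at 0.5 CPM, 11 at 2 CPM and 13 without any 1 library. Depth limits the 23 untested genes.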

Other observations

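A further 33 imprinted genes, 28 of them in the table, were read in the same way: 8 were expressed, 3 low and 17 silent, 8 of these with 0 counts. The highest was Inpp5f, a phosphoinositide phosphatase gene, at a mean of 144 CPM, followed by the paraoxonase gene Pon2 at 58.2 CPM. Tnfrsf26 and Tnfrsf22, decoy-type death receptor genes beside the Kcnq1 domain, stood at 24 and 9.69 CPM. Of the 9 tested, edgeR, DESeq2 and limma-voom called 0, where they called 0.404%, 2.51% and 0.353% of all genes. For 4 of the 9 (44.4%, against 18.5% of all tested genes) the genotypes did not overlap, and 2 (22.2%, against 13.4%) had an unadjusted p under 0.05. The last 2 were Inpp5f, at 136 ± 2.98 CPM in the 3 knockout libraries against 151 ± 3.92 (log2 −0.15, edgeR adjusted p = 0.358), and Dhcr7, a cholesterol synthesis gene, at 35.5 ± 4.12 against 30.1 ± 1.34 (log2 0.24, edgeR adjusted p = 0.353).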
